A study of Mus musculus with 30 samples.

Results

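The clustered protocadherins are 57 of the 21951 protein-coding genes of the mouse annotation (GENCODE release 21 for mouse, on build mm10). They were chosen as the protein-coding genes of chromosome 18 whose symbols are Pcdha, Pcdhac, Pcdhb, Pcdhga, Pcdhgb or Pcdhgc followed by a number. They lie head to tail on the plus strand from position 36930184 to 37841873 of chromosome 18, a span of 911.7 kb, in 3 groups. The alpha group holds 14 genes (12 Pcdha and 2 Pcdhac), the beta group 22, and the gamma group 21 (12 Pcdhga, 6 Pcdhgb and 3 Pcdhgc). The annotation gives the symbol Pcdha11 to 2 genes of the alpha group, and both were counted. At each member the question was whether a peak of H3K27ac, an acetylation of histone H3, lay within 1 kb of a start site. Such a peak is called a promoter peak below.

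Clustered protocadherins are cell adhesion proteins of the cadherin superfamily. Neurons choose a few of the variable promoters, and the resulting combination of adhesion proteins on the surface lets a cell recognise its own branches. Each alpha or gamma gene has its own large first exon, with its own promoter, that is spliced to constant exons shared by the whole group, whereas each beta gene is a single large exon. Promoter choice is known to involve looping by CTCF and cohesin to distal enhancers, as well as DNA methylation and methylation of lysine 9 of histone H3. Acetylation at lysine 27 of the same histone (H3K27ac) is found at active promoters and enhancers. The promoters are best known from neurons, and here they were read in lung tumour cells.

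The 9 H3K27ac samples among the 30 of the series fall into 4 groups, from CK1750 and Tnm2, 2 cell lines of mouse lung adenocarcinoma. Cells of each line received DMSO, the solvent, or UNC0638 at 1 µM, which blocks G9a and Glp, the enzymes that place H3K9me2. There were 3 samples of CK1750 with DMSO, under 2 replicate numbers, 2 of CK1750 with UNC0638, under 1 replicate number, and 2 each of Tnm2 with solvent and with inhibitor. Samples of H3K9me2 and of input DNA were not analysed here. Whether either line derives from 1 clone is not given in the sources used here.

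Each group came as 1 merged peak list, so there was no replicate error and no difference was tested. All values below are counts, positions and scores with no error. The score is 10 times the negative log10 of the P value that the peak caller gave, and a peak entered a list at a score of 50. The 4 lists held 18794 to 30641 peaks, fewest in Tnm2 with UNC0638, and their depth was unknown. A difference in depth between lists and an effect of line or UNC0638 cannot be told apart. For this reason scores were compared mainly as percentiles, the rank of a peak among all peaks of its own list. Fixed score limits of 100 and 200 are also used below, and they fall at different percentiles in different lists. A gene with no peak is a gene below the calling limit, not one without acetylation.

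As a check of the label, the epithelial genes Nkx2-1, Cdh1, Krt8, Krt18 and Krt19 had a promoter peak in all 4 lists. Epcam and Sftpc, 2 other markers of lung epithelium, had none in any list, and Sftpb had peaks in Tnm2 with UNC0638 alone. The neuronal markers Rbfox3, Snap25, Syt1 and Tubb3 had none, nor did the 2 blood and 2 endothelial markers, and of 2 stromal markers Col1a1 had one in all lists except Tnm2 with UNC0638.

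Few protocadherin promoters carried a peak, and those that did lay almost all in the gamma group. In CK1750 with DMSO 9 of the 57 members (15.8%) had a promoter peak, beside 48.6% of all protein-coding genes. In CK1750 with UNC0638 it was 5 members (8.77%), beside 47.8%. In Tnm2 with DMSO 6 members (10.5%) had one, beside 47.7%. In Tnm2 with UNC0638 it was 2 members (3.51%), beside 39.8%. The members' share was thus below that of all coding genes in each of the 4 lists, and in both lines it was lower in the UNC0638 list than in the DMSO list, an order that turned in Tnm2 at equal numbers of peaks.

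The 3 groups of the cluster did not contribute alike. None of the 14 alpha genes had a promoter peak in any list. Of the 22 beta genes 2 had one in the DMSO list of CK1750, 1 in its UNC0638 list and 0 in either Tnm2 list. Of the 21 gamma genes 7 had one in CK1750 cells given DMSO and 4 in those given UNC0638. In Tnm2 the numbers were 6 and 2, so that the share ranged from 9.52 to 33.3%. Even in the gamma group, then, the share was below that of all coding genes in each list.

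**Figure D1:**
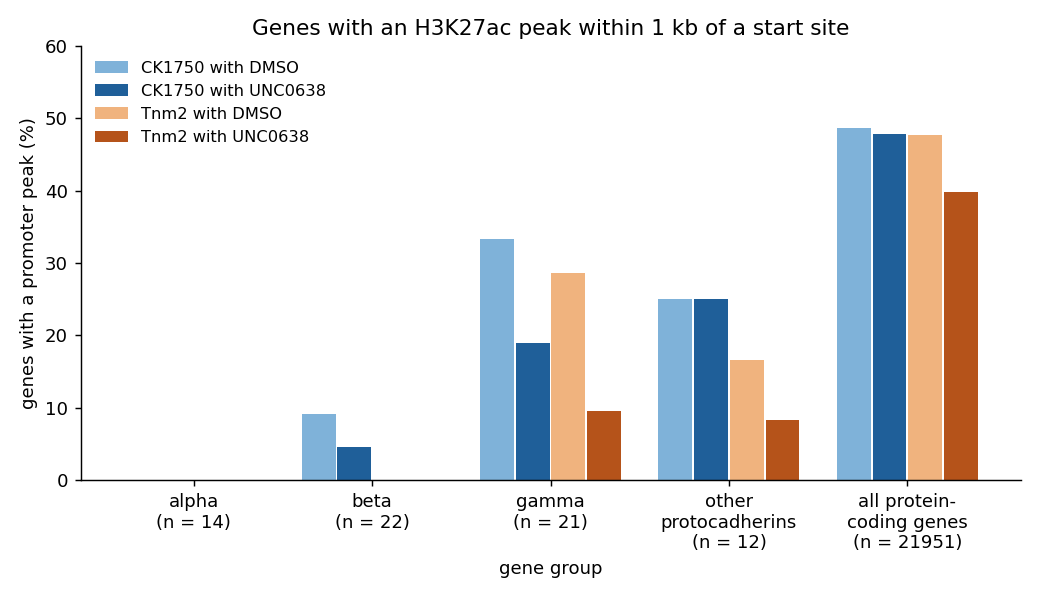
Bars give the percentage of genes with an H3K27ac peak within 1 kb of a start site (vertical axis) for the alpha, beta and gamma protocadherins, the 12 protocadherins outside the cluster and all 21951 protein-coding genes (horizontal axis), with 1 bar for each of the 4 peak lists and no error, since each group has 1 list. The alpha genes are at 0 in every list, and the gamma genes reach 33.3% in CK1750 with DMSO, below the 48.6% of all coding genes in that list.

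Taken over the 4 lists, 11 members (19.3%) had a promoter peak in at least 1 list, against 52.3% of all coding genes, and 46 had none. They were 2 of the beta genes, Pcdhb17 and Pcdhb19, and 9 of the gamma genes (42.9%). A single member, Pcdhga7, had a peak in all 4 lists. Among genes with a peak in any list, 9.09% of the members had it in all 4, and 72.5% of the other coding genes did. The other 10 members with a peak had one in some lists and not in others.

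**Figure D2:**
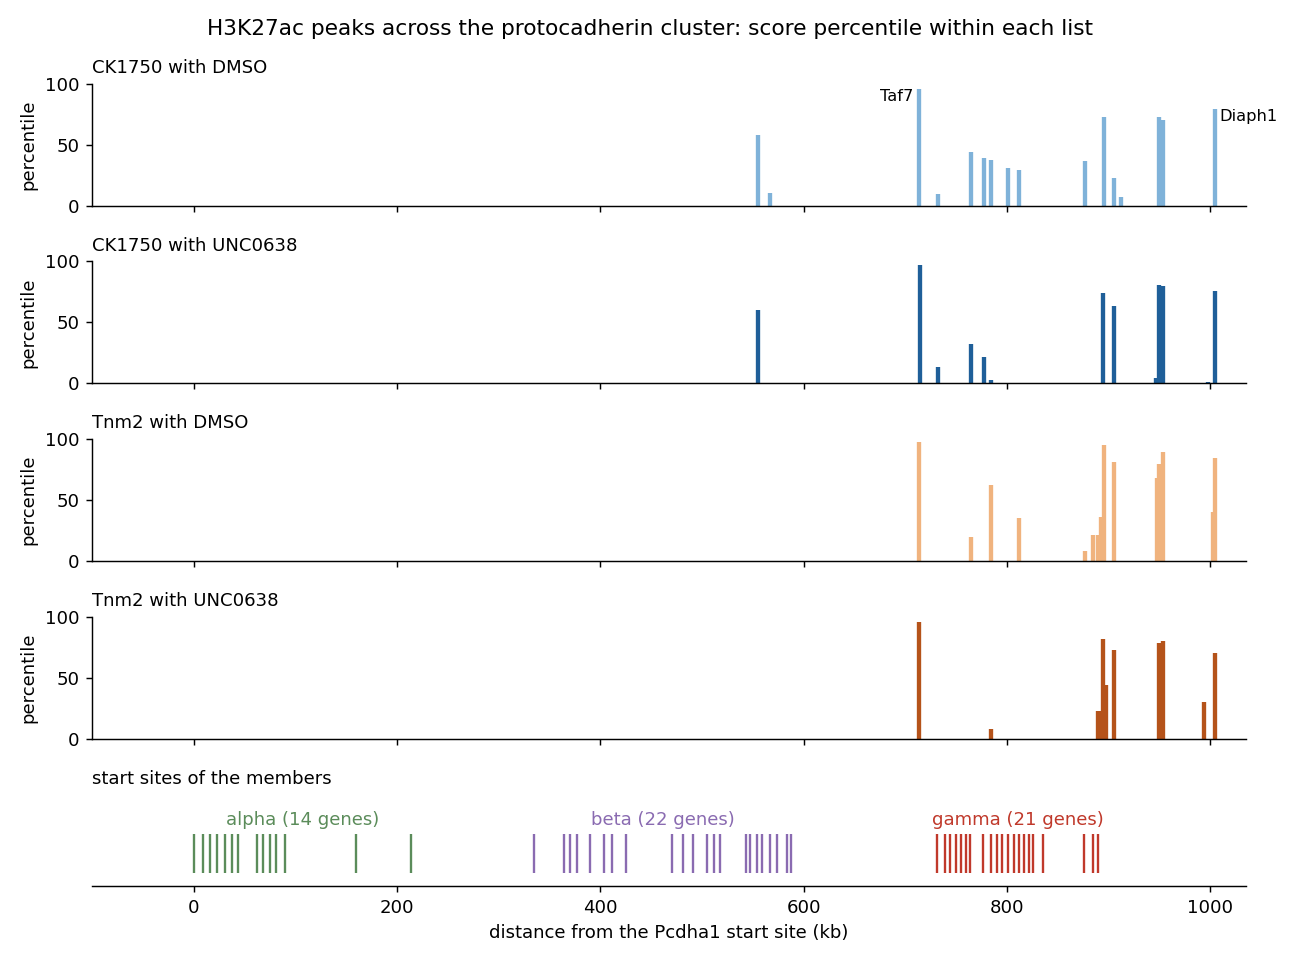
Each vertical line is an H3K27ac region at its distance in kb from the Pcdha1 start site (horizontal axis, from 100 kb before the cluster to 100 kb after it), with the score percentile of its highest peak within that list (vertical axis, 0 to 100), in 1 panel for each list. The ticks at the bottom are the start sites of the 57 members. No region appears over the alpha genes, the tallest line within the cluster is that of Taf7, and the gamma genes hold 9 regions in each DMSO list and 6 in each UNC0638 list.

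The alpha genes encode the adhesion proteins at the 5′ end of the cluster, and their whole span was free of peaks. Over 257.5 kb of alpha genes, with the 100 kb before them and the 77.28 kb between the alpha and beta groups, each of the 4 lists had 0 peaks. The alpha constant exons, at 37156155 to 37156213, 37159265 to 37159353 and 37184946 to 37187657, lay in this span. The nearest peak to an alpha start was between 128 and 341 kb away in CK1750 with DMSO, and the median over the 14 genes was 181 kb. With all 4 lists joined, the peak-free stretch ran from 36802294 to 37484886, or 682.6 kb, and held the starts of 31 members, all 14 alpha and 17 beta. Of the 37691 stretches between neighbouring peaks in the genome 732 (1.94%) were at least as long, and 16 held as many coding starts as its 34. The stretch is therefore among the longer ones of these lists but has others like it.

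The beta genes, each a single exon with no constant part, had peaks at 2 starts, toward the 3′ end of the group, and in CK1750 alone. Pcdhb17 (start at 37484795) had a score of 206.4 in CK1750 with DMSO, at the 57.9th percentile of that list. It had 258.13 with UNC0638, at the 59.8th percentile, and no peak in either Tnm2 list. Its rank in CK1750 was thus near the middle of the list with and without UNC0638. Of the other coding genes with a promoter peak of 200 or more in CK1750 with DMSO, 129 of 8187 (1.58%) had no promoter peak in Tnm2 with DMSO. In the UNC0638 lists the corresponding number was 603 of 8004 (7.53%). Pcdhb17 was the 1 member at or above 200 in the CK1750 lists, and it had no peak in the Tnm2 list in both cases. Both peaks began after the start site and lay wholly inside the exon, at 37485001 to 37485709 with DMSO and 37484887 to 37485690 with UNC0638.

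Pcdhb19 (start at 37496991) had a weak peak in CK1750 with DMSO, with a score of 56.76 at the 10.3rd percentile, and none in the other lists. The other 20 beta genes had none in any list. The median distance from a beta start to the nearest peak was 56.5 kb in CK1750 with DMSO and 215 kb in both Tnm2 lists, where the nearest peaks to the group lay outside it.

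The gamma genes fall into the A and B types, alternating along most of the group, and the C types at its 3′ end. Among the A types, Pcdhga7 (start at 37714764) was the member with a peak in every list. Its scores were 100.77 in CK1750 with DMSO (37.2nd percentile) and 52.83 with UNC0638 (2.87th). In Tnm2 they were 206.93 with DMSO (62.2nd percentile) and 55.88 with UNC0638 (7.85th). In both lines the peak thus stood near the low end of the UNC0638 list and higher in the DMSO list. The noncoding transcript Gm37165 overlaps its first exon, and the lists do not say which of them a peak belongs to.

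Pcdhga5 (start at 37694380) had a peak in all lists except Tnm2 with UNC0638. Its scores were 122.63 in CK1750 with DMSO (43.7th percentile) and 102.02 with UNC0638 (32.7th), and 67.46 in Tnm2 with DMSO (20.0th). Of all coding genes 5.97% had this pattern over the lists. Pcdhga6 (start at 37707039) had peaks in the CK1750 lists alone, with 106.32 for DMSO (39.1st percentile) and 77.41 for UNC0638 (21.5th). Pcdhga1 (start at 37661793), the first gene of the group, also had peaks in the CK1750 lists alone, with 56.16 for DMSO (9.31st percentile) and 64.72 for UNC0638 (13.4th). The noncoding Gm37118 starts within 1 kb of it. Together with Pcdhb17, these were the 3 members found in both CK1750 lists and in no Tnm2 list, a pattern of 2.08% of all coding genes.

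Among the B types, Pcdhgb5 (start at 37731009) had a peak in CK1750 with DMSO alone, at 85.55 and the 31.3rd percentile. Pcdhgb6 (start at 37742094) had peaks in both DMSO lists and in neither UNC0638 list, at 81.03 in CK1750 (29.2nd percentile) and 95.09 in Tnm2 (35.3rd). The peaks of Pcdhga5, Pcdhga6, Pcdhga7, Pcdhgb5 and Pcdhgb6 all lay between 37694306 and 37742690, and of the other A and B types Pcdhga1 alone had one.

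The C types are known for constant rather than random use in neurons. Pcdhgc3 (start at 37806364) had the same pattern as Pcdhgb6, with 98.01 in CK1750 with DMSO (36.3rd percentile), 55.35 in Tnm2 with DMSO (8.64th) and none with UNC0638. This pattern was that of 0.656% of all coding genes. The noncoding BC037039 starts within 1 kb of it. Pcdhgc4 (start at 37815079) had a peak in Tnm2 with DMSO alone, at 69.33 and the 21.1st percentile. Pcdhgc5 (start at 37819513) had peaks in both Tnm2 lists, at 69.21 with DMSO (21.1st percentile) and 69.98 with UNC0638 (22.9th), and none in CK1750. Pcdhgc5 was the only member found in both Tnm2 lists and in no CK1750 list, a pattern of 0.601% of all coding genes. Of the 11 members with a peak, Pcdhgc4 and Pcdhgc5 at the 3′ end were the ones seen in Tnm2 alone.

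**Figure D3:**
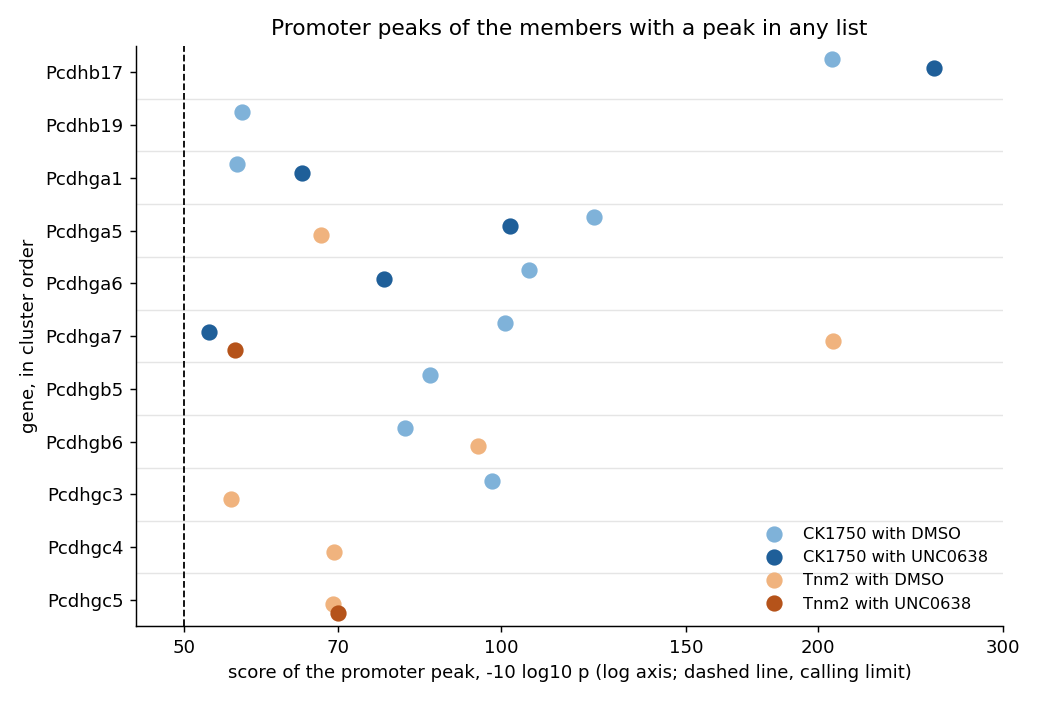
Points give the score of the promoter peak, 10 times the negative log10 of its P value, on a log axis (horizontal) for each of the 11 members with a peak in any list (vertical axis, in cluster order), coloured by list, and the dashed line is the calling limit of 50. A missing point is a list with no promoter peak, and most points lie between 50 and 125, with Pcdhb17 in CK1750 and Pcdhga7 in Tnm2 with DMSO above 200.

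The members' peaks were narrow and ranked low beside those of other promoters. Median width was 617 bp at the members in CK1750 with DMSO and 1232 bp at the other coding genes with a promoter peak. In Tnm2 with DMSO the widths were 536.5 and 1235 bp. The median score percentile was 36.3 at the members and 77.3 at the other genes in CK1750 with DMSO, and 21.1 and 77.4 in Tnm2 with DMSO. A score of at least 100 was reached at 4 of 9 members in CK1750 with DMSO, 2 of 5 with UNC0638, 1 of 6 in Tnm2 with DMSO and 0 of 2 with UNC0638. Of the other coding genes with a promoter peak, 9621 of 10662, 9501 of 10486, 9338 of 10474 and 6772 of 8737 reached it, in the same order.

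The peaks sat over the beginning of the first exon, which codes for the part of the protein outside the cell. At the gamma genes this is the variable exon, and at the beta genes it is the only one. Of the 22 pairs of a member and its peak, 21 had more of the peak inside the first exon than outside it, and the median was 91.1% of the peak. The exception was Pcdhgc4, whose peak ended 0.406 kb before the start. The first exons were 2545 to 7138 bp long, and a peak covered at most 27.8% of one. A narrow peak just after a start therefore falls mostly inside such an exon, and the first exons of other genes were not measured. In CK1750 with DMSO a median of 92.5% of the peak was downstream of the start at the members and 74.7% at other genes. With UNC0638 the values in CK1750 were 95.2% and 72.9%. In Tnm2 they were 95.5% and 74.8% with DMSO, but 71.8% and 74.5% with UNC0638, where 2 members had a peak. The median centre of the members' peaks was 208.5 bp downstream of the start in CK1750 with DMSO, where that of other genes was 269 bp, and 274.5 bp in Tnm2 with DMSO, where it was 270 bp at other genes.

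**Figure D4:**
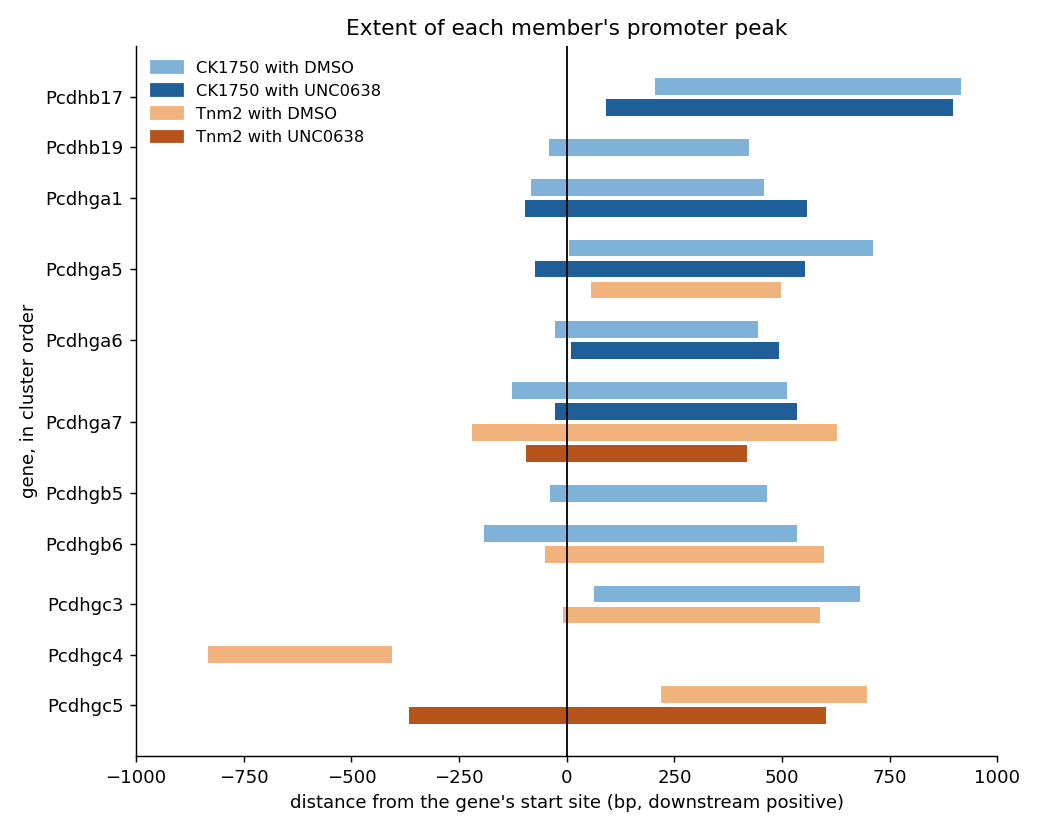
Each bar is the extent of 1 promoter peak in bp from the start site of its gene (horizontal axis, downstream positive, start site as a black line), grouped by member in cluster order (vertical axis) and coloured by list. All bars lie on or downstream of the start site except that of Pcdhgc4 in Tnm2 with DMSO, which ends 0.406 kb upstream.

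The comparison of UNC0638 with DMSO addressed which promoters carry H3K27ac when G9a and Glp are inhibited. No member had a promoter peak in a UNC0638 list that it did not have in the DMSO list of the same line. In CK1750, 5 members had a peak in both lists and 4 in the DMSO list only, namely Pcdhb19, Pcdhgb5, Pcdhgb6 and Pcdhgc3. Of all coding genes 2.34% had one in the DMSO list only and 1.52% in the UNC0638 list only. In Tnm2, Pcdhga7 and Pcdhgc5 had a peak in both lists and 4 in the DMSO list only, namely Pcdhga5, Pcdhgb6, Pcdhgc3 and Pcdhgc4. Of all coding genes 8.53% had one in the DMSO list only and 0.601% in the UNC0638 list only. With UNC0638-only shares of 1.52 and 0.601%, the lack of such members says little in a set of 57 genes. As a share of the 57, the 4 members in the DMSO list only were near that of all coding genes in Tnm2 and above it in CK1750. Pcdhgb6 and Pcdhgc3 were in the DMSO list only in both lines. Neither kept this at equal numbers of highest-scoring peaks, where Pcdhgb6 had no peak in any list and Pcdhgc3 none in Tnm2.

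All 8 of these peaks present with DMSO only had scores below 100, near the limit at which a peak is called. In CK1750 the members with a DMSO score from 50 to 100 had no UNC0638 peak in 4 of 5 cases, and the other coding genes in that range in 365 of 1041 (35.1%). In Tnm2 it was also 4 of 5, and 847 of 1136 (74.6%) of the other genes. From 100 to 200, 0 of 3 members in CK1750 had no UNC0638 peak, and 8.86% of the other genes. When each list was reduced to its 18794 highest-scoring peaks, the size of the shortest, CK1750 had 6 members with DMSO and 2 with UNC0638. In Tnm2, 1 member, Pcdhga7, then had a peak with DMSO, and Pcdhga7 and Pcdhgc5 with UNC0638, so the direction in Tnm2 turned. The lower number of members in Tnm2 with UNC0638 thus did not hold at equal numbers of peaks.

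The comparison of the lines used the same 4 lists. With DMSO, 4 members had a promoter peak in both lines, 5 in CK1750 only and 2 in Tnm2 only. The 5 were Pcdhb17, Pcdhb19, Pcdhga1, Pcdhga6 and Pcdhgb5, and the 2 were Pcdhgc4 and Pcdhgc5. Of all coding genes 3.69% had one in CK1750 only and 2.82% in Tnm2 only. With UNC0638, Pcdhga7 had one in both lines, Pcdhb17, Pcdhga1, Pcdhga5 and Pcdhga6 in CK1750 only, and Pcdhgc5 in Tnm2 only. Of all coding genes 9.19% then had one in CK1750 only and 1.21% in Tnm2 only. Thus Pcdhb17, Pcdhga1 and Pcdhga6 were on the CK1750 side, and Pcdhgc5 on the Tnm2 side, with either treatment. At equal numbers of peaks Pcdhb17 alone of these kept its side with both treatments. Pcdhga1 then had no peak in any list, Pcdhga6 none in CK1750 with UNC0638 and Pcdhgc5 none in Tnm2 with DMSO. Pcdhga5, which had a Tnm2 peak with DMSO in the full list, was then in CK1750 only with both treatments as well.

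Across the cluster with 100 kb on each side there were 18 peaks in CK1750 with DMSO and 13 with UNC0638. Tnm2 had 15 with DMSO and 12 with UNC0638, an order that turned to 9 and 12 at equal numbers of highest-scoring peaks. Within the cluster CK1750 had 14.3 and 8.77 peaks per Mb and Tnm2 11.0 and 8.77, for DMSO and UNC0638. Over the whole genome the densities were 10.04 and 9.024, and 11.24 and 6.894 per Mb. Over chromosome 18 they were 10.03 and 9.261, and 12.5 and 7.376. The cluster was thus above both in CK1750 with DMSO and Tnm2 with UNC0638, and below both in the other lists. Peaks per Mb take no account of how many gene starts a span holds. The gamma genes alone, 180.1 kb long, held 10, 6, 9 and 7 peaks, or 33.3 to 55.5 per Mb. Peaks of the cluster were therefore gathered at its 3′ end, while the alpha and most of the beta genes had none.

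Joined over the lists, the peaks of the cluster made 16 regions, of which 11 lay at a member start and 1 at Taf7. Taf7, a subunit of the general transcription factor TFIID, lies between the beta and gamma genes. The CK1750 scores of its promoter were 2219.91 with DMSO and 2342.94 with UNC0638, and those of Tnm2 1888.12 and 809.17, at the 95.8th to 97.7th percentile of each list. A strong promoter in every list thus lay among the weak ones of the members. Slc25a2, a mitochondrial carrier beside Taf7, had no promoter peak in any list.

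The other 4 regions lay at the 3′ end of the gamma genes, past the last start and at no coding start. The widest, at 37823932 to 37826985, covered the first gamma constant exon (37825021 to 37825079), which all 21 gamma genes share. In CK1750 its highest score was 399.14 with DMSO (72.3rd percentile) and 484.79 with UNC0638 (74.2nd). In Tnm2 it was 1377.18 with DMSO (95.6th percentile) and 320.19 with UNC0638 (82.1st). It was thus in all 4 lists, above every member's promoter peak in rank. The noncoding Gm38182 starts within 1 kb of it.

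The region at 37834972 to 37836438, between the second and the third gamma constant exon, was also in all 4 lists. Its scores were 69.94 and 298.83 in CK1750, at the 22.6th and 63.4th percentile for DMSO and UNC0638. In Tnm2 they were 481.65 and 227.09, at the 81.3rd and 73.1st. In CK1750 it was thus low in the DMSO list and in the upper part of the UNC0638 list.

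The remaining 2 regions were seen in Tnm2 alone. That at 37822094 to 37823060 lay 2.44 kb after the nearest of the 4 annotated Pcdhgc5 starts and had scores of 98.14 with DMSO and 70.17 with UNC0638. That at 37827592 to 37828342, between the first and the second constant exon, had 104.62 with UNC0638 and no peak with DMSO. With Pcdhgc4 and Pcdhgc5, the 4 regions of the cluster found in Tnm2 lists alone all lay at the 3′ end, and of the 5 found in CK1750 lists alone none lay after Pcdhgb5. This split held only within the cluster. In the 100 kb on either side, 2 regions were in CK1750 lists alone and 2 in Tnm2 lists alone. The nearest, at 37842717 to 37843194 just past the last gamma gene, was in CK1750 with DMSO alone, at a score of 54.85.

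Beyond the cluster lies Diaph1, a formin that nucleates actin filaments, which had a promoter peak in all 4 lists. Inside it, regions at 37878771 to 37880452 and 37883438 to 37884594 were in all 4 lists as well. The former scored 403.99 with DMSO and 667.82 with UNC0638 in CK1750, and 448.47 and 279.36 in Tnm2. The latter scored 355.64 and 653.53 in CK1750, and 779.54 and 294.72 in Tnm2. Of the 7 regions found in all 4 lists, that of Pcdhga7 was the only one at a member start.

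The members resemble one another in sequence, so short reads might not map to each. The sources differ on read length, which is 75 bases in the labels and 38 bases, read from both ends, in the study's methods. Of the 75-base words in the 2 kb around a member's gene start, 88.9 to 100% occurred once in the genome, and 53 of the 57 members were at 90% or more. Of the 38-base words, each taken alone and not as a pair, 76.7 to 100% did, and 44 members were at 90% or more. With 38 bases the median was 99.7% at the 11 members with a peak and 93.2% at the 46 without, and 90.1% at the alpha genes. With the 3 groups pooled, members without a peak thus had a lower median share of words that occur once. All 11 members with a peak were at 90% or more, as were 33 of the 46 without. The groups differed, with 7 of 14 alpha, 17 of 22 beta and 20 of 21 gamma genes at 90% or more. The beta median was 100%. Pcdhac1 and Pcdhac2, also at 100%, had no peak in any list. Members with and without a peak were not compared within a group. The part of such words in the missing peaks was not tested.

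CpG content around the start was lower at the beta genes than at the alpha genes. Over 1 kb centred on the start, CpG observed over expected, the number of CpG sites divided by the number that the base composition gives, had a median of 0.681 at the alpha genes, none of which had a peak. It was 0.657 at the 9 gamma genes with a peak and 0.586 at the 12 without. At the beta genes it was 0.341 with a peak and 0.379 without. Other coding genes had 0.733 with a promoter peak in any list and 0.239 without. Among the members with a peak, Pcdhgc3 was highest at 0.796 and Pcdhb19 and Pcdhgc5 lowest at 0.223 and 0.233. The alpha genes were thus nearer in this ratio to other promoters with a peak than to those without. In the share of G and C bases they were not. Its median was 45.4% at the alpha genes, and 58.7% with a peak and 48.7% without at other coding genes.

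**Figure D5:**
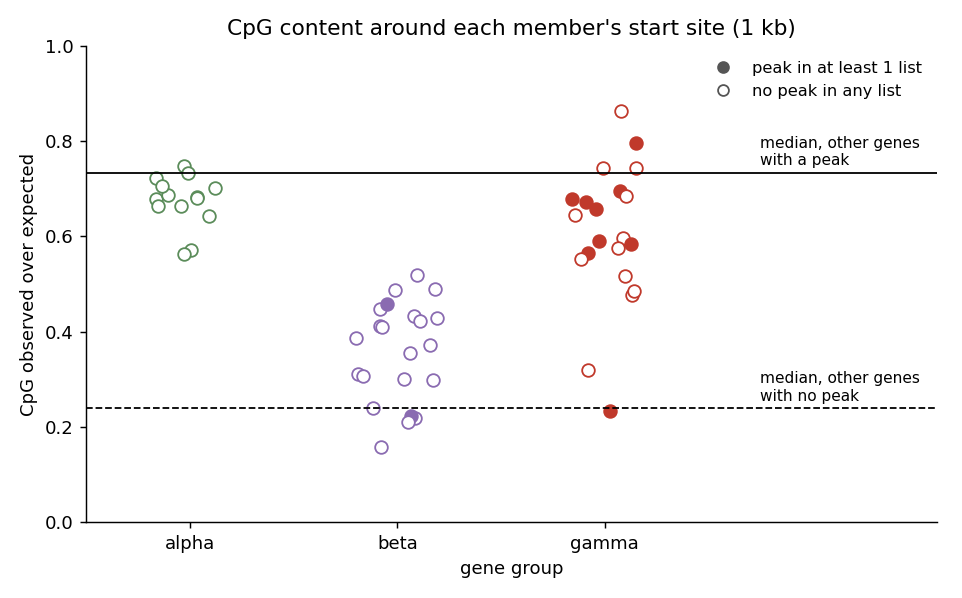
Each point is 1 member, with the ratio of observed to expected CpG over 1 kb around its start (vertical axis) by group (horizontal axis, points spread sideways for legibility), filled where the member had a promoter peak in at least 1 list. Lines mark the medians of the other coding genes with a peak (0.733, solid) and without (0.239, dashed), and the 14 open alpha points lie between 0.564 and 0.748.

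The protocadherins outside the cluster, which do not share constant exons, were also mostly without a peak. Of 12 genes 3 had a promoter peak in each CK1750 list, and 2 and 1 in the Tnm2 lists for DMSO and UNC0638. Pcdh1 had one in all lists. Pcdh7 had 121.25 and 66.44 in CK1750 and 76.74 in Tnm2 with DMSO, and none in Tnm2 with UNC0638. Pcdh18 had 162.25 and 191.25 in CK1750 and none in Tnm2. No gene of this list had a peak with UNC0638 and not with DMSO in the same line. Of all coding genes 1.52% did in CK1750 and 0.601% in Tnm2, and with shares this low a list of 12 genes says little on this point.

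The genes known to act on the cluster's promoters mostly had peaks of their own. Of 23 looping and chromatin regulators 22 had a promoter peak in both CK1750 lists and in Tnm2 with DMSO, and 19 did in the UNC0638 list of Tnm2. Of all coding genes 48.6 and 47.8% had one in CK1750 with DMSO and UNC0638, and 47.7 and 39.8% in Tnm2. Ctcf, which binds the variable promoters, was at the 97.8th to 99.8th percentile in each list. Those without a peak in Tnm2 with UNC0638 were Tet1, which had none in any list, Smc1a, a cohesin subunit, Setdb1, an H3K9 methyltransferase, and Dnmt3b, a DNA methyltransferase. In Tnm2 with DMSO, Smc1a had a score of 54.23, Setdb1 of 234.27 and Dnmt3b of 133.54. Such an absence was not particular to these genes. Of the 10480 coding genes with a promoter peak in Tnm2 with DMSO, 1873 had none with UNC0638. Outside the cluster the share was 74.6% at DMSO scores from 50 to 100, 41.7% from 100 to 200 and 3.31% from 200. The absence was thus common at the scores of Smc1a and Dnmt3b and rarer at that of Setdb1. Of 10 partners of protocadherins in signalling 8, 7, 8 and 6 had a peak in the 4 lists, beside the shares of all coding genes given above. Ptk2b, a kinase that binds protocadherins, had one in the DMSO lists only, at 50.14 in CK1750 and 75.07 in Tnm2. Psen2, of the protease that cleaves them, had none in Tnm2 with UNC0638 and scores of 58.9 to 94.89 elsewhere.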

How the data were processed

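The authors mapped reads to mm10 with Bowtie2 and called H3K27ac peaks with MACS 1.4.2, keeping those with P up to 1e-05. The deposited score of each peak is 10 times the negative log10 of its P value. Labels tie all samples of a group to 1 merged list, and which libraries entered, or whether input was the control, is not stated. Fewer replicate numbers stand in the labels than the methods state, which was not resolved.

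Start positions were converted to 1-based coordinates, and 0 peaks passed the end of any of 21 chromosomes of GRCm38. A promoter peak overlapped by at least 1 bp the 1 kb on either side of any annotated transcript start (93472 starts of coding genes). Depth being unknown, no interval and no test was computed. The promoter calls were checked on simulated peaks. Alternatives were a 2.5 kb window, other start sites, peak centres, the nearest start, a score of at least 100, equal numbers of peaks, other flanks and merged peaks. The 38-base words were added after the data had been seen.

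The members, gene lists and alternatives were chosen with earlier results of these data known. By rule, each member with a promoter peak in any list was named, as were the neighbours, other protocadherins and regulators with a peak in some lists only, and peaks between the first and last start that are at no member. Regions past the last start, signalling partners and the genes with extreme CpG content were named after their values were seen. Python 3.11.15, numpy 2.4.6 and matplotlib 3.10.9 were used. Promoter sequences of the members are not printed.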

Additional observations from a re-analysis of the deposited data

Results flagged for a closer look

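Of 43 differences between UNC0638 and DMSO that were set side by side for the lines, 2 had opposite signs in CK1750 and Tnm2, and both lie in the 100 kb after the gamma genes. Most of the 43 showed no difference in at least 1 line and so could not have opposite signs. Several also count the same peaks, since the spans lie within one another. The 43 are therefore no measure of how alike the lines were. The covered length there differed by 16 bp in CK1750, from 3612 to 3628 bp, and by -1328 bp in Tnm2, from 5100 to 3772 bp. The region at 37877041 to 37878009 of chromosome 18, in an intron of Diaph1, had a peak with UNC0638 and not with DMSO in CK1750 (a difference of 1 list, with a score of 54.49), and with DMSO and not with UNC0638 in Tnm2 (a difference of -1, with a score of 256.21). The differences between the lines were not tested, as each group has 1 list.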

How the results depend on the processing

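Of 108 values computed for 16 counts under the alternatives, 80 stayed within 1.5 times and 28 did not, and of 77 for the 11 single members 61 stayed. The members with a peak were the same under the 2.5 kb window, the other start sites, peak centres and the nearest start. The alpha genes had 0 members under every alternative.

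With scores of at least 100, CK1750 had 4 members with a promoter peak with DMSO and 2 with UNC0638, and Tnm2 had 1 and 0. Those with DMSO only were then 2 in CK1750, Pcdhga6 and Pcdhga7, and 1 in Tnm2, Pcdhga7. Each had a UNC0638 peak below 100 in the same line, so none was with DMSO only in the full lists. Those in CK1750 only were 3 with DMSO and 2 with UNC0638, and those in Tnm2 only 0 with each. Peaks across the cluster with 100 kb on each side were 9, 8, 9 and 7. With equal numbers of peaks, 2 members had one in CK1750 with UNC0638 and 1 in Tnm2 with DMSO. In Tnm2, 0 were then in the DMSO list only and 1 in the UNC0638 list only. Between the lines, 0 were in Tnm2 only with DMSO, and with UNC0638 2 were in CK1750 only and 2 in Tnm2 only. Peaks across the cluster were 11 and 8 in CK1750 with solvent and inhibitor, and 9 and 12 in Tnm2, so the order in Tnm2 turned. Without the flank, CK1750 with UNC0638 had 8 peaks, and with 200 kb on each side it had 22, Tnm2 with DMSO 26 and Tnm2 with UNC0638 21. Both limits remove low-scoring peaks by construction, and the cause of any other shift was not tested.

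No paired analysis was possible because each group has 1 merged list, which also kept replicates from being left out. Depth is unknown, so the lowest-scoring peaks of a list limit every count of members.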
